A study of Mus musculus with 9 samples.

Results

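The genes described here are the D cyclins Ccnd1, Ccnd2 and Ccnd3, their partner kinase Cdk6, the MYC family factors Myc and Mycn, and the CDK inhibitors Cdkn1a (p21), Cdkn1b (p27), Cdkn1c (p57) and Cdkn2c (p18). They were chosen by symbol, and all 10 of 10 were found among the 30407 features shared by both experiments. Their transcripts were counted as unique molecular identifiers (UMIs, each standing for 1 captured molecule) in 18733 single cells. A cell was kept if it had at least 5000 UMIs, of which at most 10% came from mitochondrial genes.

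All cells were of the line NIH3T3-CG, mouse embryonic fibroblasts, measured with the 3' single-cell kit of 10x Genomics. The study asked how single cells of this line vary in their answer to SAG, a small molecule that activates Smoothened and so switches on the Hedgehog pathway. Experiment 2 with Dox was sampled at 0, 19 and 30 h of SAG, Experiment 2 without Dox at the same times, and Experiment 1 at 0, 17 and 30 h, which makes 9 libraries. What Dox induces in these cells is not stated in the labels. Dox is not named for Experiment 1, and its cells were treated here as having had none. Nor do the labels say whether libraries came from separate cultures, so the p-values rest on a spread between libraries that may be technical. No library was kept without SAG to a late time, and SAG time and time in culture therefore cannot be told apart. The line is immortalised, and its cells do not stand for primary fibroblasts.

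D cyclins are made when growth factors act on a cell. They bind CDK4 or CDK6, and the complex phosphorylates the retinoblastoma protein, which frees E2F factors to switch on the genes of S phase. MYC proteins raise transcription of genes for growth and ribosome production and act upstream of D cyclins and of several CDKs. The CDK inhibitors act against these kinases: Cdkn2c belongs to the INK4 group, which binds CDK4 and CDK6 directly, while Cdkn1a, Cdkn1b and Cdkn1c belong to the CIP/KIP group, which binds cyclin-CDK complexes. Hedgehog signalling is known to raise Ccnd1, Ccnd2 and Mycn in cerebellar granule cell precursors of the mouse, which makes these genes of interest in a fibroblast that responds to SAG.

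The libraries held 571 to 6520 kept cells and 19422658 to 106128757 UMIs. The 19 h library of Experiment 2 without Dox was shallow, with a median of 8025 UMIs per kept cell against 28335 to 48188 in the other 8. Barcodes with under 1% mitochondrial UMIs made up 18.2% and 17.9% of kept cells at 19 and 30 h with Dox and 19.7% at 30 h of Experiment 2 without Dox, against 0.43% to 1.41% in the other 6. Any pair of libraries shared at most 9 cell barcodes. All 9 of 9 fibroblast markers fixed for the check were detected, with summed levels of 6687 to 13267 CPM (counts scaled to a common library total). The pathway responded as labelled: Gli1 rose by 6.46 ± 0.53 on the log2 scale at 30 h of SAG without Dox (± SE, edgeR quasi-likelihood test, Benjamini-Hochberg adjusted p = 3.71e-09). Doublets were not called, and no cell type that lacks the genes was present, so the share of cells that carries their transcripts only as free RNA was not measured.

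Gene positions below follow GENCODE vM21 (build GRCm38). The cyclins Ccnd1 and Ccnd2 lie on the minus strand at chr7:144929931-144939925 and chr6:127125162-127152193, and Ccnd3 lies on the plus strand at chr17:47505051-47599691. Cdk6 spans chr5:3341485-3531008 on the plus strand. Myc is at chr15:61985391-61990374 on the plus strand and Mycn at chr12:12936093-12941914 on the minus strand. The inhibitor genes are Cdkn1a at chr17:29090976-29100727 and Cdkn1b at chr6:134920401-134925513 on the plus strand, and Cdkn1c at chr7:143458339-143461050 and Cdkn2c at chr4:109660876-109667189 on the minus strand. Of these genes, 6 overlap another annotated gene on the opposite strand: Ccnd1 shares 1771 bases with LTO1 and Ccnd3 shares 361 with Bysl, both protein coding, and Ccnd2, Cdk6, Cdkn1a and Cdkn1c overlap noncoding models. The use of strand in counting is not given in the sources used here, and the counts of these 6 are less certain for that reason.

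Member levels below are CPM of the summed UMIs of a library, scaled by TMM factors unless stated otherwise, and a summed level does not tell fewer expressing cells from less RNA per cell. Ccnd1 had 39.0, 55.3 and 68.9 CPM at 0, 19 and 30 h with Dox. It had 22.7, 26.6 and 26.3 CPM at 0, 19 and 30 h of Experiment 2 without Dox, and 19.2, 20.04 and 17.5 CPM at 0, 17 and 30 h of Experiment 1. The 3 libraries with Dox were the 3 highest and did not overlap the others; their 95% Poisson intervals, the lowest of which was 37.0 to 41.0 CPM at 0 h, did not overlap each other either. Among the 6 libraries without Dox only the step between 26.3 and 22.7 CPM in Experiment 2 exceeded counting error between neighbours in the order of levels. Intervals of counts and shares cover counting error only.

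Ccnd2 showed no such split. It had 137, 152 and 169 CPM with Dox, 141, 140 and 192 CPM in Experiment 2 without Dox, and 103, 108 and 104 CPM in Experiment 1. Its highest library was 30 h of Experiment 2 without Dox, and the 3 libraries of Experiment 1 were the 3 lowest, with overlapping intervals. This order depends on the scaling. Without TMM factors the highest was 30 h with Dox (199 CPM), and the lowest were 0 and 19 h of Experiment 2 without Dox (97.6 and 114 CPM). Ccnd3 had 46.3, 69.6 and 83.4 CPM with Dox, 35.1, 54.6 and 74.4 CPM in Experiment 2 without Dox, and 64.4, 43.6 and 55.7 CPM in Experiment 1. Both arms of Experiment 2 were thus lowest at 0 h and highest at 30 h, whereas 0 h was the highest time of Experiment 1. Cdk6, which forms the active kinase with these cyclins, had 13.1, 22.7 and 27.0 CPM with Dox, 10.4, 13.5 and 19.95 CPM in Experiment 2 without Dox, and 11.7, 12.6 and 12.2 CPM in Experiment 1. Its 3 highest libraries were the late ones with Dox and 30 h without Dox of Experiment 2, and the other 6 followed with intervals that overlapped from each to the next.

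Promoter windows are shown for the 2 members of this group with an entry in the promoter table used, because both rose with Dox (below) and lie next to reference motifs of known factors. They are the 250 bases before the annotated start from RefSeq (GRCm38.p6), with capitals on GC boxes (GGGCGG, either strand) in Ccnd3 at chr17:47504801-47505050 and on the E-box CACGTG, the sequence MYC and MAX bind, in Cdk6 at chr5:3343643-3343892, both on the plus strand.
Ccnd3: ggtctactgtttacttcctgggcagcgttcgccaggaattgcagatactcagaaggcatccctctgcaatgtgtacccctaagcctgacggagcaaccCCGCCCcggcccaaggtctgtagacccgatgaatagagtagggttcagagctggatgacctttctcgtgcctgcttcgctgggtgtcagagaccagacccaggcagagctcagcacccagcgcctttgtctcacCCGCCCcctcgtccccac
Cdk6: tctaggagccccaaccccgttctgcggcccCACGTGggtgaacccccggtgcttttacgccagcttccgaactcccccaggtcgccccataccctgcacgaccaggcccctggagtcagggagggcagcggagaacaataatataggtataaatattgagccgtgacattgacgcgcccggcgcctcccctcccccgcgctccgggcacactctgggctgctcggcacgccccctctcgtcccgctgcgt
The GC boxes of Ccnd3 begin 152 and 18 bases before the start used here on the reverse strand, and GC boxes stand in 32.7% of all 32851 windows. For Ccnd3 RefSeq entries gave 2 starts, and the window of the other start is not shown. The E-box of Cdk6 begins 220 bases before its start, and 6.02% of windows hold one. The letters GACCACCCA, to which GLI factors bind, stand in 0.225% of windows and in none of the windows of the 6 members in the table, and GACCACCCA, TTTGGCGC, TTTCCCGC and GGGCGG were searched on both strands.

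Myc had the widest range of the 8 members tested when its highest library is divided by its lowest. It had 15.7, 9.94 and 8.45 CPM at 0, 19 and 30 h with Dox, 27.6, 17.7 and 16.3 CPM in Experiment 2 without Dox, and 65.7, 63.5 and 44.9 CPM in Experiment 1. Every library of Experiment 1 was above every library of Experiment 2. In both arms of Experiment 2 the 0 h library was the highest, while 0 and 17 h of Experiment 1 had overlapping intervals. Mycn, the relative of Myc that drives precursor growth in the brain, was close to absent: the 9 libraries held 1, 1 and 1 UMIs with Dox, 0, 0 and 0 in Experiment 2 without Dox, and 0, 1 and 0 in Experiment 1. A count of 0 allows up to 0.0284 CPM in the deepest of these libraries and 0.128 CPM in the shallowest, so that any difference in Mycn was not detectable at this depth.

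Of the inhibitors, Cdkn1a, a p53 target that stops the cycle after DNA damage, had 297, 334 and 325 CPM with Dox, 149, 209 and 212 CPM in Experiment 2 without Dox, and 129, 134 and 127 CPM in Experiment 1. The 3 libraries with Dox were the 3 highest and did not overlap the rest. Cdkn1b, which accumulates in resting cells, had 57.8, 35.2 and 22.1 CPM with Dox, 51.0, 49.0 and 25.2 CPM in Experiment 2 without Dox, and 27.8, 40.8 and 41.4 CPM in Experiment 1. Its times therefore ran in opposite order in the 2 experiments, with 0 h highest in Experiment 2 and lowest in Experiment 1.

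Cdkn2c was highest at 0 h in every arm. It had 61.8, 24.8 and 19.3 CPM with Dox, 51.7, 35.3 and 21.1 CPM in Experiment 2 without Dox, and 38.5, 28.3 and 26.2 CPM in Experiment 1. Cdkn1c, an imprinted gene known from embryonic tissues, was near the limit of counting, with 5, 10 and 8 UMIs with Dox, 1, 1 and 3 in Experiment 2 without Dox, and 0, 1 and 0 in Experiment 1. All 3 libraries with Dox held more of its UMIs than any of the other 6.

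**Figure D1:**
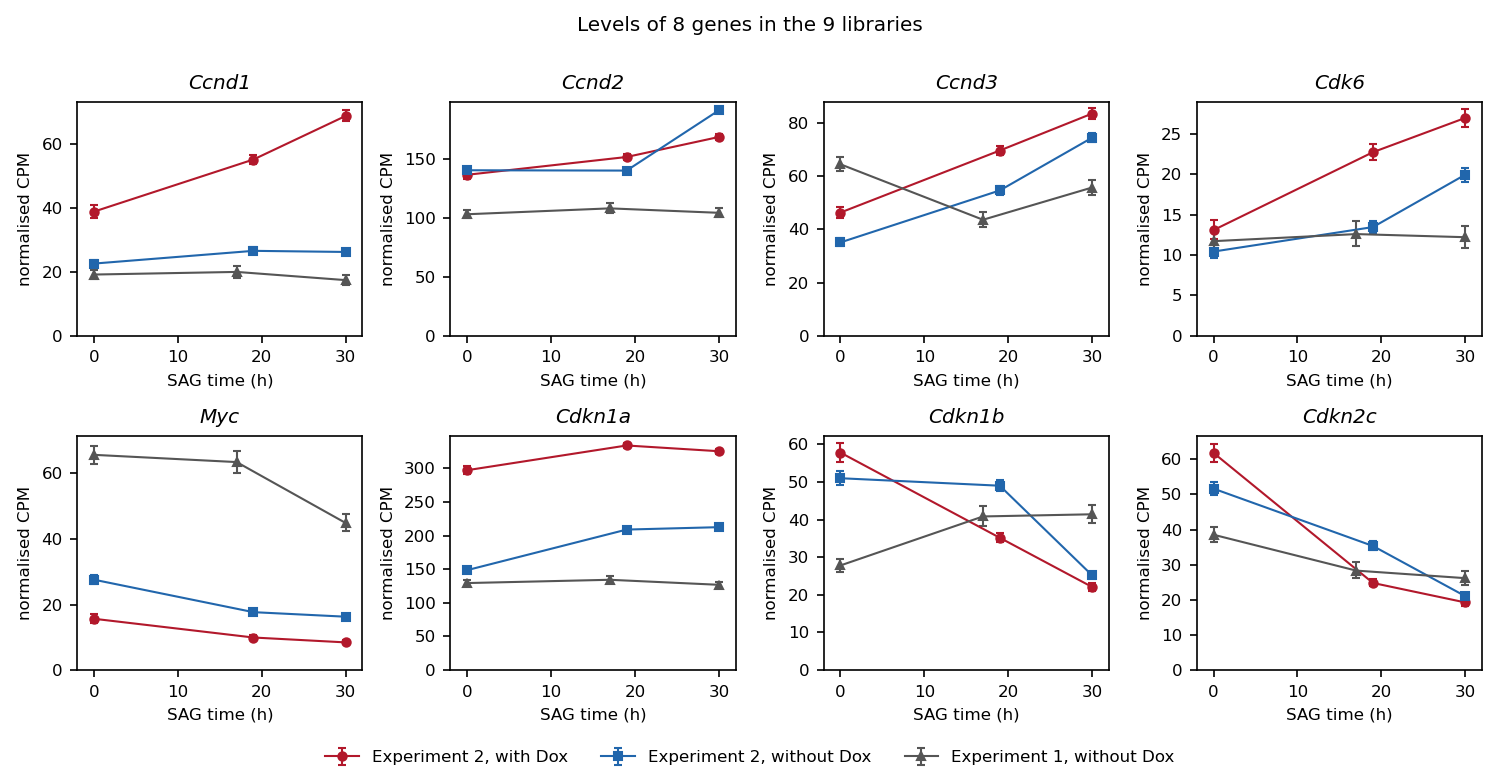
Levels of the 8 members with enough counts, in TMM-scaled CPM with 95% Poisson intervals, against hours of SAG, with a line for Experiment 2 with Dox, for Experiment 2 without Dox and for Experiment 1. Ccnd1 and Cdkn1a with Dox stand above all other libraries, Myc of Experiment 1 stands above all libraries of Experiment 2, and Cdkn2c is highest at 0 h on each line.

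The promoter window of Cdkn1a is shown because it holds a pair of matches to GAACATGTC, letters of the p53 binding sequence, beside the gene whose rise with Dox is described next. The window is chr17:29090729-29090978 on the plus strand (RefSeq, GRCm38.p6), with those letters in capitals.
Cdkn1a: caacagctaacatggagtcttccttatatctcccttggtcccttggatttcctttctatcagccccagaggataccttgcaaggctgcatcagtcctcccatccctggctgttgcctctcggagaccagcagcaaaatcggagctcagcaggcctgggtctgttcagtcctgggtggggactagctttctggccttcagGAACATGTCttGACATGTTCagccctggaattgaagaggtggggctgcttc
The match on the forward strand begins 51 bases and that on the reverse strand 40 bases before the start used here. RefSeq entries gave 2 starts for Cdkn1a, and only the window of this start is shown. The letters stand in 0.11% of all windows, and the motif was chosen after the sequence was seen. A match describes the sequence and does not show binding.

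With Dox, Ccnd1, Cdkn1a and Cdk6 rose and Myc fell. Over 3 matched times (0, 19 and 30 h, 1 library each with and without Dox), Ccnd1 was 2.11-fold higher with Dox, a log2 change of 1.08 ± 0.12 (± SE, adjusted p = 1.56e-09, edgeR quasi-likelihood test with Benjamini-Hochberg adjustment). Cdkn1a was 1.69-fold higher (0.76 ± 0.14, adjusted p = 2.12e-05 by edgeR) and Cdk6 1.42-fold higher (0.51 ± 0.11, adjusted p = 0.000472 by edgeR). Myc had 0.548 times the level without Dox (-0.87 ± 0.11, adjusted p = 3.94e-08 by edgeR). All 4 genes moved the same way at 3 of 3 times. The fit left 2 residual degrees of freedom, so its small p-values lean on a spread pooled over genes.

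The differences by time show the size of each step. For Ccnd1 the log2 difference of Dox over no Dox was 0.78, 1.05 and 1.39 at 0, 19 and 30 h, for Cdkn1a 1.0, 0.68 and 0.61, for Cdk6 0.33, 0.75 and 0.43, and for Myc -0.82, -0.83 and -0.94. The rise of Ccnd1 and of Cdkn1a was thus present before SAG. Whether the answer to SAG differed with Dox was tested as an interaction: Ccnd1 gave 0.45 ± 0.28 (adjusted p = 1.0 by edgeR), and 0 of 8 members passed in that test, where 0 of all 14354 genes passed, 186 had an unadjusted p under 0.05 and DESeq2 called 1.

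Ccnd3 also passed the threshold, at 0.30 ± 0.12 (adjusted p = 0.0418 by edgeR), with differences of 0.40, 0.35 and 0.17 at 0, 19 and 30 h. That call was lost in 15 of 17 alternative settings, with adjusted p between 0.0523 and 0.622. Cdkn1c passed on few UMIs, at 2.29 ± 0.68 (adjusted p = 0.00656 by edgeR), and lost the call with DESeq2 (adjusted p = 0.0862) and without any 1 of the libraries of 0 and 19 h (adjusted p 0.0628 to 0.0808). It met the low-count filter only through libraries with Dox, where its counts were higher. Filter and test thus drew on the same values, and the call for Cdkn1c is no independent result. Ccnd2 (-0.04 ± 0.13), Cdkn1b (-0.17 ± 0.12) and Cdkn2c (-0.13 ± 0.12) did not pass. In all, 6 of the 9 members tested passed, Cdkn1c among them, in a comparison in which 38.4% of 13645 genes did. Of the 9, 5 were higher with Dox, again counting Cdkn1c, against 19.2% of all genes, and 1 was lower, against 19.2%.

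**Figure D2:**
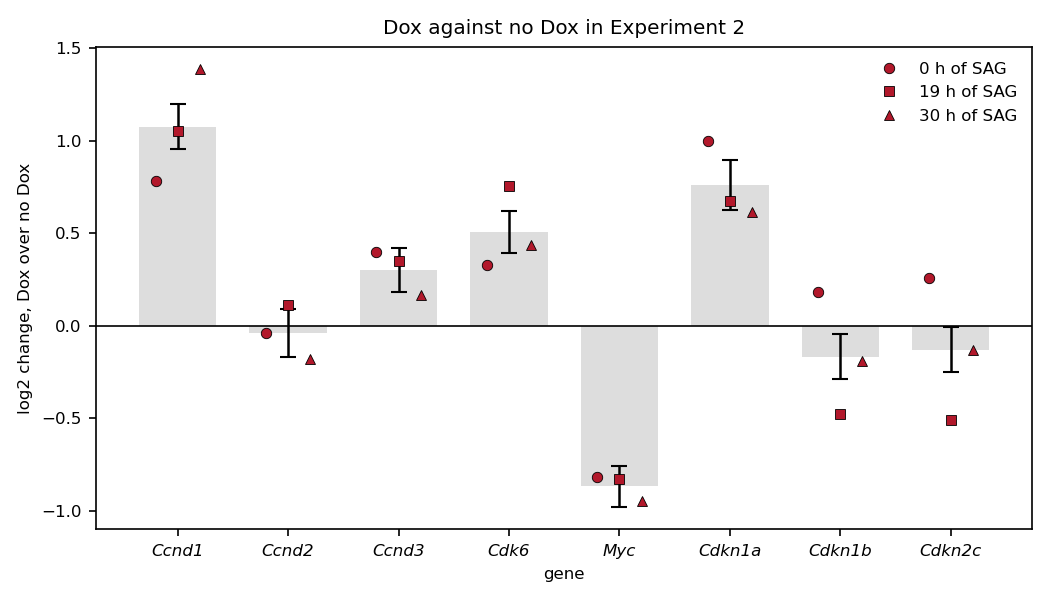
Log2 change of Dox over no Dox in Experiment 2 for 8 members, with grey bars for the fitted change, lines for its SE and points for the difference at 0, 19 and 30 h. Ccnd1 and Cdkn1a lie above 0 and Myc below 0 at all 3 times, whereas the points of Ccnd2, Cdkn1b and Cdkn2c lie on both sides of 0.

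The values with Dox depend on the scaling, since TMM factors differ between these libraries. Scaling by library size alone, added after seeing the data, moves the median of all genes by 0.39. Under it Ccnd1, Cdkn1a, Ccnd3 and Cdk6 stay higher with Dox and Myc stays lower, at -0.47, while Ccnd2 is at 0.35 (adjusted p = 0.0177 by edgeR), against -0.04 with TMM factors. Among cells with few cycle transcripts (the neither class described below), the change of Ccnd1 was 1.95 and that of Myc was -0.28 (adjusted p = 0.325 by edgeR), so that the call for Myc was lost there. Without SAG time as a term no member passed, with Ccnd1 at 1.11 (adjusted p = 0.0610 by edgeR) and Myc at -0.86 (adjusted p = 0.193 by edgeR). The barcodes with under 1% mitochondrial UMIs move with Dox at 19 h, and without them the changes were as large, at 1.06 for Ccnd1, 0.76 for Cdkn1a and -0.85 for Myc.

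Genes around the members in the pathway were read from lists written from general knowledge. With Dox 19.2% of all 13645 genes were higher and 19.2% lower, so that some calls in each direction are not particular to a list. Of 11 tested partners of D cyclins and pocket proteins, 2 rose and 3 fell with Dox, among them Ccna2, the cyclin of S phase and mitotic entry (-0.64, edgeR adjusted p = 0.000197), and Rbl2, a pocket protein of resting cells (0.46, edgeR adjusted p = 0.00178). E2F factors gave 0 higher and 3 lower of 9, with E2f2 at -0.99. Dyrk1b, a kinase that phosphorylates cyclin D1 for degradation, rose by 0.69 among 17 genes of cyclin and inhibitor turnover (3 higher, 2 lower). Of 31 tested genes that MYC proteins activate, 0 rose and 19 fell, with a median of -0.39 against 0.01 over all genes tested, including Odc1 and Srm of polyamine synthesis (-0.87 and -0.69).

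Other partners of the MYC network gave 5 higher and 0 lower of 12, led by Mxd4, which competes with MYC for MAX (0.84, edgeR adjusted p = 2.02e-07). Of 23 p53 targets 4 rose and 1 fell, with Sesn1 at 0.41 and Plk2 at -0.62, and the list median of 0.09 was near the 0.01 of all genes. G2 and M genes gave 2 higher and 39 lower of 57 (median -0.50), with Ube2c, the ubiquitin-conjugating enzyme of mitotic exit, at -1.26, and S phase genes 1 higher and 17 lower of 46 (median -0.25). Of 9 fibroblast markers 5 were higher with Dox (median 0.48) and 0 lower, with summed levels, without TMM scaling, of 10752 to 13267 CPM with Dox and 6687 to 9665 CPM without it in Experiment 2.

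Of smooth muscle markers, all 6 of 6 detected, 1 was higher with Dox (Myl9, 0.79) and 0 lower (median 0.05), and they summed without TMM scaling to 364 to 506 CPM with Dox and 341 to 372 CPM without. Macrophage markers summed on the same scale to 11.5 to 19.1 CPM with Dox and 7.10 to 15.0 CPM without, with Adgre1 at 0 in all 6 libraries, while of the 2 tested 0 were higher and 1 lower (Cd68, -1.25, edgeR adjusted p = 1.02e-06). Among markers of other cell types, the endothelial gene Tek (1.91), the adipocyte gene Fabp4 (1.90) and the neural gene Snap25 (1.60) were higher with Dox and the epithelial gene Krt8 (-1.97) was lower. These are single genes of lists at low levels. Without TMM scaling, endothelial genes summed to 0.247 to 1.66 CPM and epithelial genes to 0.121 to 0.664 CPM in Experiment 2. Adipocyte genes summed to 0.322 to 2.51 CPM and neural genes to 2.92 to 8.59 CPM. The part of these genes in the members' changes was not tested.

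With SAG time no member passed the test over libraries. At 30 h against 0 h without Dox, 0 of 8 members tested passed by edgeR, in a comparison in which 0.446% of 14354 genes did; 1483 genes had an unadjusted p under 0.05 and DESeq2 called 12. The member nearest to the threshold was Cdkn2c, at -0.92 ± 0.24 (edgeR adjusted p = 0.0844), followed by Myc at -0.66 ± 0.23 (edgeR adjusted p = 0.273). Cdk6 was at 0.52 ± 0.24, Ccnd3 at 0.40 ± 0.28, Ccnd2 at 0.24 ± 0.28, Cdkn1a at 0.24 ± 0.29, Ccnd1 at 0.04 ± 0.23 and Cdkn1b at -0.21 ± 0.28. Each rests on 2 libraries a time and 2 residual degrees of freedom, so that changes of this size were not separated from the spread.

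These changes differed with the experiment counted. Experiment 1 has 1 library at 0 h, and without it the only 0 h level without Dox is that of Experiment 2. Cdkn2c then fell by 1.13, Ccnd3 rose by 1.06 and Myc fell by 0.85. In Experiment 2 without Dox alone, their log2 changes from 0 h to 30 h were -1.29, 1.08 and -0.76. Leaving out the 30 h library of Experiment 1 likewise put Cdkn2c at -1.27. At 17 to 19 h against 0 h, 0 of 8 members passed, where 0.111% of genes did, 383 had an unadjusted p under 0.05 and DESeq2 called 7; Cdkn2c was at -0.50 and Myc at -0.34. Between 17 to 19 h and 30 h, 0 of 8 passed, where 0.00697% of genes did, 418 had an unadjusted p under 0.05 and DESeq2 called 0.

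Late against 0 h over the 3 arms, which shares its libraries with the comparisons above, again gave 0 of 8 members by edgeR, where 0.715% of 13837 genes passed and 3572 had an unadjusted p under 0.05. Cdkn2c was at -0.98 ± 0.20 (adjusted p = 0.0564), Myc at -0.59 ± 0.14 (adjusted p = 0.0715) and Cdk6 at 0.55 ± 0.17 (adjusted p = 0.111). DESeq2, which called 8.77% of genes here, called these same 3 members: Cdkn2c at -0.99 (adjusted p = 0.000962), Myc at -0.61 (adjusted p = 0.00789) and Cdk6 at 0.54 (adjusted p = 0.0450). Without the 0 h library of Experiment 1, edgeR called 6 of the 8, with Ccnd1 at 0.44, Ccnd3 at 0.79, Cdk6 at 0.79, Myc at -0.74, Cdkn1b at -0.75 and Cdkn2c at -1.20. In that fit 3964 genes passed in all, in place of 99, so the gain in calls was not particular to the members.

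Within arms the log2 changes from 0 h show which members were alike between experiments. Cdkn2c was lower at every late time: at -1.32 and -1.68 at 19 and 30 h with Dox, -0.55 and -1.29 in Experiment 2 without Dox, and -0.44 and -0.56 at 17 and 30 h of Experiment 1. Myc was also lower in 6 of 6 late libraries, by between -0.05 and -0.89. Cdk6 was higher in 6 of 6, though by only 0.10 and 0.06 in Experiment 1 against 0.37 to 1.04 in Experiment 2.

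Ccnd3 and Cdkn1b went opposite ways between the experiments. For Ccnd3 the changes were 0.59 and 0.85 with Dox, 0.64 and 1.08 in Experiment 2 without Dox, and -0.56 and -0.21 in Experiment 1. For Cdkn1b they were -0.72 and -1.39 with Dox, -0.06 and -1.02 in Experiment 2 without Dox, and 0.55 and 0.57 in Experiment 1. The difference between Experiment 2 without Dox and Experiment 1 in the answer to SAG was 1.25 ± 0.35 for Ccnd3 (edgeR adjusted p = 0.273) and -1.02 ± 0.51 for Cdkn1b (edgeR adjusted p = 0.437). There, 0 of 8 members passed, where 0.0557% of genes did, 1735 had an unadjusted p under 0.05 and DESeq2 called 197. Leaving out the 19 h library of Experiment 2 without Dox left 1 late library in that arm. Ccnd3 was then at 1.45, Cdkn1b at -1.59, Cdkn2c at -0.80 and Cdk6 at 0.84.

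Few genes of the pathway lists around the members passed with SAG. At 30 h the calls in the lists were limited to the Hedgehog readout, with 3 higher of 8, and each other list of cyclin partners, E2F factors, inhibitors, MYC targets, p53 targets, FOXO targets, ERK feedback, S phase and G2 and M genes had 0 calls in either direction. Over the 3 arms Klf4, a factor that restrains the cycle, was higher (0.94, edgeR adjusted p = 0.0490) and Ier3, an early growth factor response gene, was lower (-0.79, edgeR adjusted p = 0.0295).

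Between the experiments, Myc differed most of the 8 members tested when all kept cells were counted; in cells with at most 5% mitochondrial UMIs Ccnd1 differed more, as given below. Without Dox it was lower in Experiment 2 than in Experiment 1 by -1.51 ± 0.19 on the log2 scale, or 0.350 times its level (adjusted p = 1.18e-05, edgeR quasi-likelihood test with Benjamini-Hochberg adjustment), at 3 of 3 times and in 17 of 17 alternatives. By time the difference was -1.25, -1.84 and -1.46 at 0, 17 to 19 and 30 h. Ccnd2 was higher in Experiment 2, at 0.57 ± 0.22 (adjusted p = 0.0451 by edgeR), a call that was lost without any 1 of the 6 libraries (adjusted p 0.0517 to 0.212). These were 2 of 8 members tested, in a comparison in which 40.5% of 13015 genes passed. Scaling by library size alone moved the median of all genes by -0.46 here, and Myc was then the only member called. Each experiment was made with its own version of the counting software and a different feature set, and the part of these in the difference was not tested.

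Ccnd1 was at 0.42 ± 0.18 between the experiments (edgeR adjusted p = 0.0692) and Cdkn1a at 0.53 ± 0.22 (edgeR adjusted p = 0.0650), both short of the threshold. For Ccnd1 the mitochondrial share of the cells mattered. In cells with at most 5% mitochondrial UMIs, Ccnd1 without TMM scaling had 24.0, 31.5 and 23.8 CPM in Experiment 2 without Dox, against 4.09, 2.58 and 3.40 CPM in Experiment 1, where all kept cells gave 22.5, 22.2 and 19.3 CPM. The level of Ccnd1 in Experiment 1 was thus lower in cells at or under 5% than over all kept cells. Those cells held a small part of the UMIs. At 17 h of Experiment 1 the 1 UMI of Cdkn1c stood for 0.517 CPM in them, against 0.0515 CPM over all kept cells. In the cells at or under 5% the difference of Ccnd1 between experiments was 3.35 (edgeR adjusted p = 2.19e-06). It rests on few UMIs of Ccnd1 in Experiment 1. With Dox Ccnd1 had 65.1, 64.2 and 79.8 CPM in such cells.

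The lists around the members gave calls in both directions between the experiments, where 40.5% of all genes passed. The partners of MYC gave 1 higher and 5 lower of 12, with MAX, the partner MYC needs to bind DNA, lower in Experiment 2 (Max, -0.89, edgeR adjusted p = 0.000901). MYC targets gave 2 higher and 4 lower of 31 (median 0.04). Of 57 G2 and M genes 35 were lower and 3 higher in Experiment 2 (median -0.69). Of 5 smooth muscle markers tested 3 were higher and 0 lower (median 1.27), with Myl9 at 2.80, and the macrophage gene Cd68 (-2.51), the adipocyte gene Fabp4 (-3.58) and the neural gene Snap25 (-1.43) were lower. The lists of these last genes were at low levels. Without TMM scaling, adipocyte genes summed to 3.61 to 6.39 CPM in Experiment 1 and 0.322 to 0.424 CPM in Experiment 2 without Dox. The part of these genes in the members' differences was not tested.

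Single cells were compared after thinning each to 5000 UMIs. At that depth a Ccnd1 UMI was found in 10.1%, 18.8% and 23.6% of cells at 0, 19 and 30 h with Dox, in 4.90%, 8.28% and 7.36% in Experiment 2 without Dox, and in 5.04%, 4.38% and 3.59% in Experiment 1. Without thinning, the shares were 32.4%, 58.2% and 67.4% with Dox, 18.2%, 15.6% and 25.8% in Experiment 2 without Dox, and 11.3%, 13.0% and 13.5% in Experiment 1. Cells with Dox held the transcript most often on both measures.

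Cdkn1a was found in 63.7%, 73.9% and 73.9% of thinned cells with Dox, in 38.2%, 53.01% and 56.4% in Experiment 2 without Dox, and in 42.1%, 44.1% and 42.4% in Experiment 1. Ccnd2 was found in 34.8% to 57.9% of cells of every library and Ccnd3 in 11.7% to 40.0%. Myc was found in 5.21%, 4.30% and 4.18% of cells with Dox, 8.32%, 5.86% and 6.39% in Experiment 2 without Dox, and 29.2%, 29.8% and 19.0% in Experiment 1. The order of the arms in Ccnd1, Cdkn1a and Myc was thus the same by share of cells as by summed level, apart from Ccnd1 and Cdkn1a at 0 h, where Experiment 1 had the larger share and Experiment 2 without Dox the larger TMM-scaled level. Shares of cells carry no TMM scaling. Without it, Experiment 1 had the larger level at 0 h too, at 22.5 against 15.7 CPM for Ccnd1 and 151 against 103 CPM for Cdkn1a.

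Cdk6 was found in 4.63%, 12.7% and 14.3% of cells with Dox, 3.49%, 6.12% and 9.59% in Experiment 2 without Dox, and 5.68%, 6.13% and 6.15% in Experiment 1. Cdkn2c was found in 23.6%, 14.2% and 11.8% with Dox, 16.4%, 13.4% and 10.6% in Experiment 2 without Dox, and 18.4%, 13.1% and 13.2% in Experiment 1. Cdkn1b lay between 9.59% and 21.0%. At least 1 of the 3 D cyclins was found in 56.8%, 73.9% and 80.7% of cells with Dox, 44.9%, 56.7% and 73.1% in Experiment 2 without Dox, and 59.3%, 55.3% and 58.6% in Experiment 1.

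**Figure D3:**
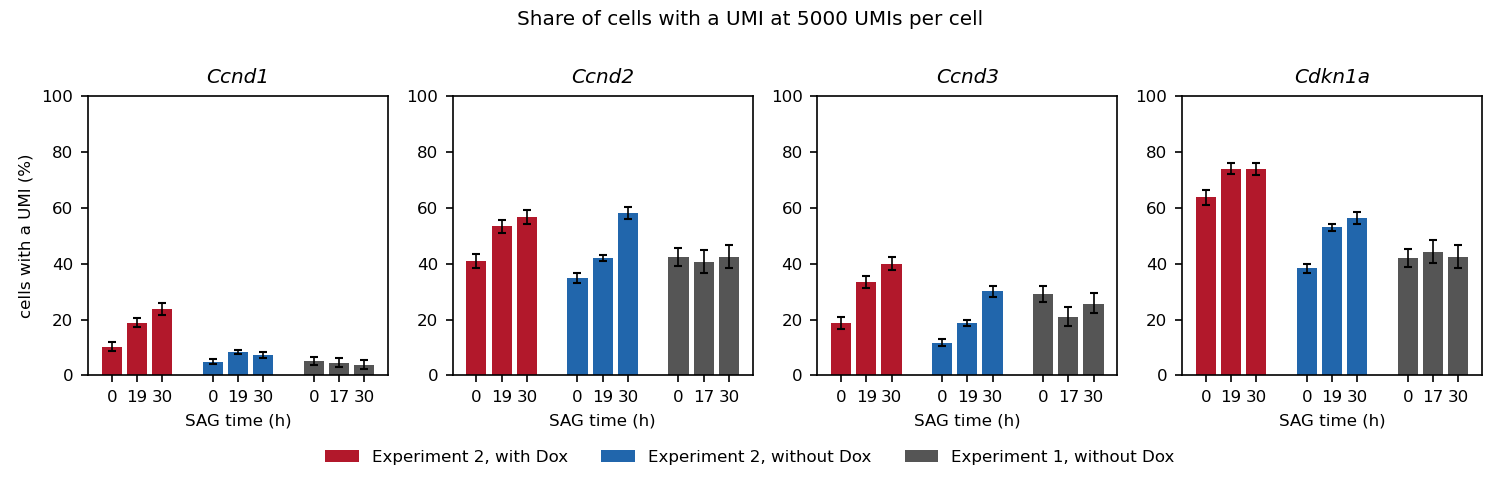
Share of cells with at least 1 UMI of Ccnd1, Ccnd2, Ccnd3 and Cdkn1a after thinning each cell to 5000 UMIs, in percent, with 95% Clopper-Pearson intervals, for Experiment 2 with Dox, Experiment 2 without Dox and Experiment 1 at each SAG time. Ccnd1 reaches 23.6% of cells at 30 h with Dox and stays at or under 8.28% in the 6 libraries without Dox.

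Ccnd1 was spread less evenly over the cells of Experiment 1 than over those of Experiment 2. The variance of its thinned UMIs divided by their mean was 1.42, 1.53 and 1.61 with Dox, 1.26, 1.2 and 1.52 in Experiment 2 without Dox, and 2.52, 2.11 and 1.95 in Experiment 1, where a Poisson count gives 1. Cells with at least 2 UMIs held 33.7%, 41.8% and 50.3% of its UMIs with Dox, 26.5%, 21.8% and 42.6% in Experiment 2 without Dox, and 67.4%, 56.4% and 64.7% in Experiment 1. Few cells of Experiment 1 therefore held most of the transcript: at 0 h 5.04% of cells had a UMI, against 8.81% expected if the same UMIs fell on cells at random. For Ccnd2 the same ratio of variance to mean lay between 1.08 and 1.28.

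Cells with a UMI of both Ccnd1 and its inhibitor partner Cdkn1a made up 6.46%, 13.2% and 16.7% with Dox, 1.34%, 4.08% and 3.33% in Experiment 2 without Dox, and 2.14%, 2.10% and 1.71% in Experiment 1. The product of the shares of the 2 genes was 6.45%, 13.9% and 17.5% with Dox, 1.87%, 4.39% and 4.15% in Experiment 2 without Dox, and 2.12%, 1.93% and 1.52% in Experiment 1. The share with both was below the product at 19 and 30 h with Dox and at all 3 times of Experiment 2 without Dox, and above it in the other 4 libraries; no difference from the product was tested.

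Across the cell cycle Ccnd1 differed most of the 8 members tested, taking G2 and M cells against cells of neither class. Thinned cells with at least 4 genes of a list of 57 G2 and M genes formed the G2 and M class, those with at least 4 of 46 S phase genes but fewer than 4 of the G2 and M list the S class, and those with at most 1 gene of either list the neither class. Ccnd1 was higher in the G2 and M class than in the neither class by 1.15 ± 0.17 (adjusted p = 1.01e-08, edgeR quasi-likelihood test over 9 libraries with library as a term), in 9 of 9 libraries. In Experiment 1 the neither class held only 26, 24 and 21 cells at 0, 17 and 30 h. Myc was higher by 0.52 ± 0.18 (edgeR adjusted p = 0.0285) and Cdkn2c lower by -0.35 ± 0.12 (edgeR adjusted p = 0.0259). These 3 of 8 members passed where 16.3% of 7419 genes did. In cells thinned to 10000 UMIs none of the 3 passed, with Ccnd1 at 1.18 (edgeR adjusted p = 0.393), and with DESeq2 the calls for Myc and Cdkn2c were lost (adjusted p = 0.266 and 0.257).

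In the S class Ccnd1 was again higher than in the neither class, at 0.95 ± 0.23 (edgeR adjusted p = 0.00226), the only 1 of 8 members, where 5.43% of genes passed. It missed the threshold with classes set at 3 list genes (0.56, edgeR adjusted p = 0.188), at 10000 UMIs (0.73, edgeR adjusted p = 0.802) and without the 19 h library of Experiment 2 without Dox (0.79, edgeR adjusted p = 0.0603). The call for Myc in the G2 and M class was lost without any 1 of 4 libraries, namely 30 h of Experiment 1, 0 h and 19 h of Experiment 2 without Dox, and 19 h with Dox. The call for Cdkn2c was lost without 0 h or 19 h of Experiment 2 without Dox.

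The G2 and M class of the long list was broad, with up to 59.5% of the cells of a library, and a narrower class was added after the data were seen. Cells with at least 3 of 20 core mitosis genes made up 3.82%, 5.18% and 4.37% of cells with Dox, 7.75%, 10.5% and 4.91% in Experiment 2 without Dox, and 8.68%, 9.46% and 12.1% in Experiment 1. In CPM of the thinned counts of a class, Ccnd1 with Dox had 112, 121 and 207 in the core mitosis class at 0, 19 and 30 h, against 20.02, 33.4 and 58.1 in cells of neither class. It had 36.6, 43.4 and 112 CPM in mitosis and 6.02, 11.8 and 13.4 in neither class in Experiment 2 without Dox. For Experiment 1 the values were 81.5, 66.7 and 64.8 in mitosis and 5.77, 1.47 and 7.41 in neither class. These classes of Experiment 1 held 81, 54 and 71 cells in mitosis and 208, 136 and 108 in neither class. Its neither-class values therefore rest on few UMIs of Ccnd1. In the fit with these classes Ccnd1 was higher in mitosis by 2.21 (edgeR adjusted p = 1.48e-14) and Myc by 0.75 (edgeR adjusted p = 0.000444), and 3405 genes passed in all. Ccnd3 (-0.86, edgeR adjusted p = 2.14e-08) and Cdkn1a (-0.40, edgeR adjusted p = 0.00175) were lower, and the call for Cdkn2c was lost (-0.18, edgeR adjusted p = 0.506). For Ccnd1, mitosis was the higher class in 9 of 9 libraries, and within neither-class cells the level with Dox stood above that of the other 6 libraries at each time.

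Seen as cells, a Ccnd1 UMI was found in 34.6%, 41.5% and 49.3% of core mitosis cells with Dox, against 8.47%, 14.6% and 21.9% of cells of neither class. The shares were 16.0%, 17.9% and 34.9% in mitosis against 2.55%, 5.19% and 5.40% in Experiment 2 without Dox, and 19.8%, 16.7% and 16.9% against 0.962%, 0.735% and 3.70% in Experiment 1. Ccnd3 had the reverse order: it was lower in the core mitosis class than in neither class in 8 of 9 libraries, at 23.2, 41.7 and 35.0 CPM with Dox in mitosis, against 43.9, 87.1 and 114 in neither class. Ccnd2 was higher in mitosis in 5 of 9 libraries, Myc and Cdkn1b in 8, Cdk6 in 7, Cdkn2c in 5 and Cdkn1a in 3.

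**Figure D4:**
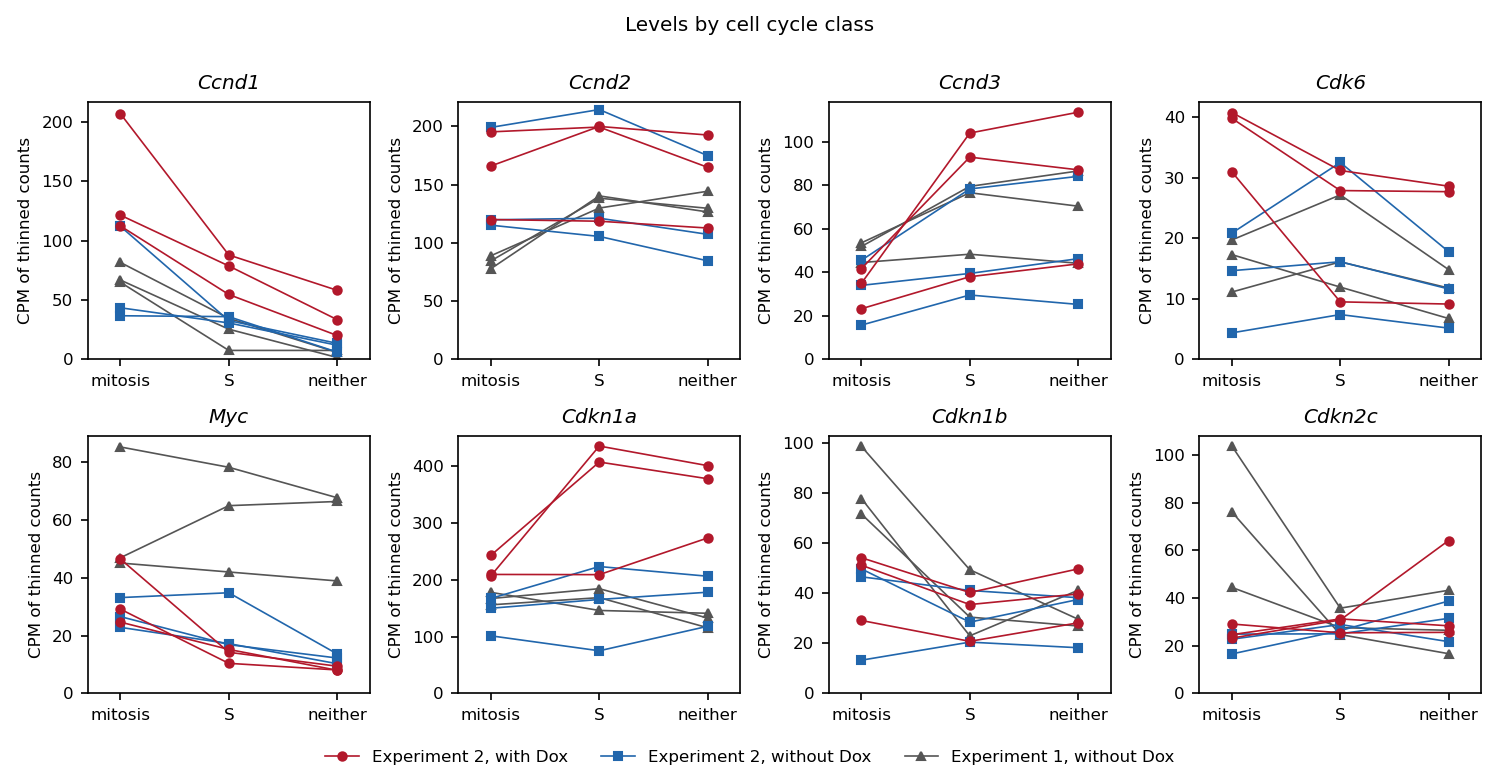
CPM of the members in cells of the core mitosis class, the S class and neither class, after thinning to 5000 UMIs, with a line for each of the 9 libraries. Every line of Ccnd1 is higher in mitosis than in neither class, and for Ccnd3 8 of 9 lines are lower there.

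Cells with a Ccnd1 UMI were then set against the other cells of their library, a comparison added after the data were seen, with Ccnd1 itself not tested. They numbered 138, 385 and 373 with Dox, 146, 540 and 159 in Experiment 2 without Dox, and 47, 25 and 21 in Experiment 1. Among them, 13.0%, 11.4% and 9.12% were core mitosis cells with Dox, 25.3%, 22.8% and 23.3% in Experiment 2 without Dox, and 34.0%, 36.0% and 57.1% in Experiment 1. The shares among cells without a Ccnd1 UMI were 2.78%, 3.73% and 2.90% with Dox, 6.85%, 9.43% and 3.45% in Experiment 2 without Dox, and 7.34%, 8.24% and 10.5% in Experiment 1. Before thinning, the cells with Ccnd1 also held more UMIs in 8 of 9 libraries, such as a median of 51273 against 43768 at 30 h with Dox. The part of this in the gene differences below was not tested beyond the thinning to a fixed depth.

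Of the other members, Myc was higher in cells with Ccnd1, by 0.51 (edgeR adjusted p = 0.0250) and in 7 of 9 libraries. The 3 inhibitors Cdkn2c (-0.53, edgeR adjusted p = 0.00238), Cdkn1b (-0.44, edgeR adjusted p = 0.00434) and Cdkn1a (-0.27, edgeR adjusted p = 0.0442) were lower, and so was Ccnd3 (-0.30, edgeR adjusted p = 0.0217), with Ccnd3 higher in only 1 of 9 libraries. Cdk6 (0.35, edgeR adjusted p = 0.109) and Ccnd2 (0.12, edgeR adjusted p = 0.401) did not pass. These were 5 of 7 members where 17% of 10625 genes passed. The call for Cdkn1b held in 12 of 12 alternatives and that for Cdkn2c in 11, the exception being Experiment 1 alone, where Cdkn2c was at -0.0036 (edgeR adjusted p = 0.996). Those for Ccnd3, Myc and Cdkn1a were lost with DESeq2 (adjusted p = 0.0526, 0.0778 and 0.288) and with single libraries left out: Ccnd3 without any 1 of 5, Myc of 5 and Cdkn1a of 7 (edgeR adjusted p 0.0514 to 0.184). In Experiment 1 alone Myc was at -0.52 (edgeR adjusted p = 0.300) and Cdkn1a at 0.18 (edgeR adjusted p = 0.647). Both lay against the direction over all libraries, and neither passed.

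The genes around them differed widely. In cells with a Ccnd1 UMI, 51 of 57 G2 and M genes and 37 of 46 S phase genes were higher and 0 of either lower. Mki67, a marker of cycling cells, was higher by 1.88 ± 0.13 (edgeR adjusted p = 1.82e-13), with 40.9, 36.6 and 27.0 CPM with Dox in cells with Ccnd1 against 7.58, 11.9 and 9.02 in cells without. MYC targets gave 22 higher and 0 lower of 31, led by Nop56 of ribosome assembly (0.91, edgeR adjusted p = 1.33e-10), with a list median of 0.43 against -0.06 over all genes. Ccna2 (1.47), Ccne2 (1.56) and Ccne1 (0.66), the cyclins that act after the D cyclins, and Rbl1 (0.93) were the 4 higher of 11 partners, with 0 lower.

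ERK feedback genes, which follow growth factor signalling, gave 6 higher and 1 lower of 14. Fosl1, an AP-1 factor, was higher by 2.42 ± 0.23 (edgeR adjusted p = 1.68e-10), in 9 of 9 libraries. It had 14.6, 16.2 and 11.9 CPM in cells with Ccnd1 against 2.47, 2.18 and 2.84 in cells without, with Dox. The values were 16.6, 11.9 and 17.7 against 3.77, 3.43 and 4.73 in Experiment 2 without Dox and 93.7, 40.0 and 38.1 against 3.84, 2.93 and 3.19 in Experiment 1. Etv4, a factor downstream of ERK, was higher by 3.03 ± 0.43 (edgeR adjusted p = 1.40e-06), and Dusp4, an ERK phosphatase, by 1.53 ± 0.24 (edgeR adjusted p = 8.81e-06).

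Of 9 fibroblast markers 6 were lower in cells with Ccnd1 and 1 higher (median -0.44, against -0.06 over all genes). Col3a1, a fibrillar collagen, was lower by -1.09 ± 0.12 (edgeR adjusted p = 5.29e-09) and lower in 9 of 9 libraries, with 243, 372 and 340 CPM with Ccnd1 against 545, 514 and 488 without, in the libraries with Dox. FOXO targets and quiescence genes gave 0 higher and 4 lower of 20 (median -0.18), near the 17% of all genes that passed, among them Txnip, which restrains glucose uptake (-0.73, edgeR adjusted p = 4.67e-05), and Hes1 (-0.40). The Hedgehog receptor and target Ptch1 was also lower (-0.44, edgeR adjusted p = 0.0113), as was the added feature GFP_g1 (-0.43, edgeR adjusted p = 0.0288).

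**Figure D5:**
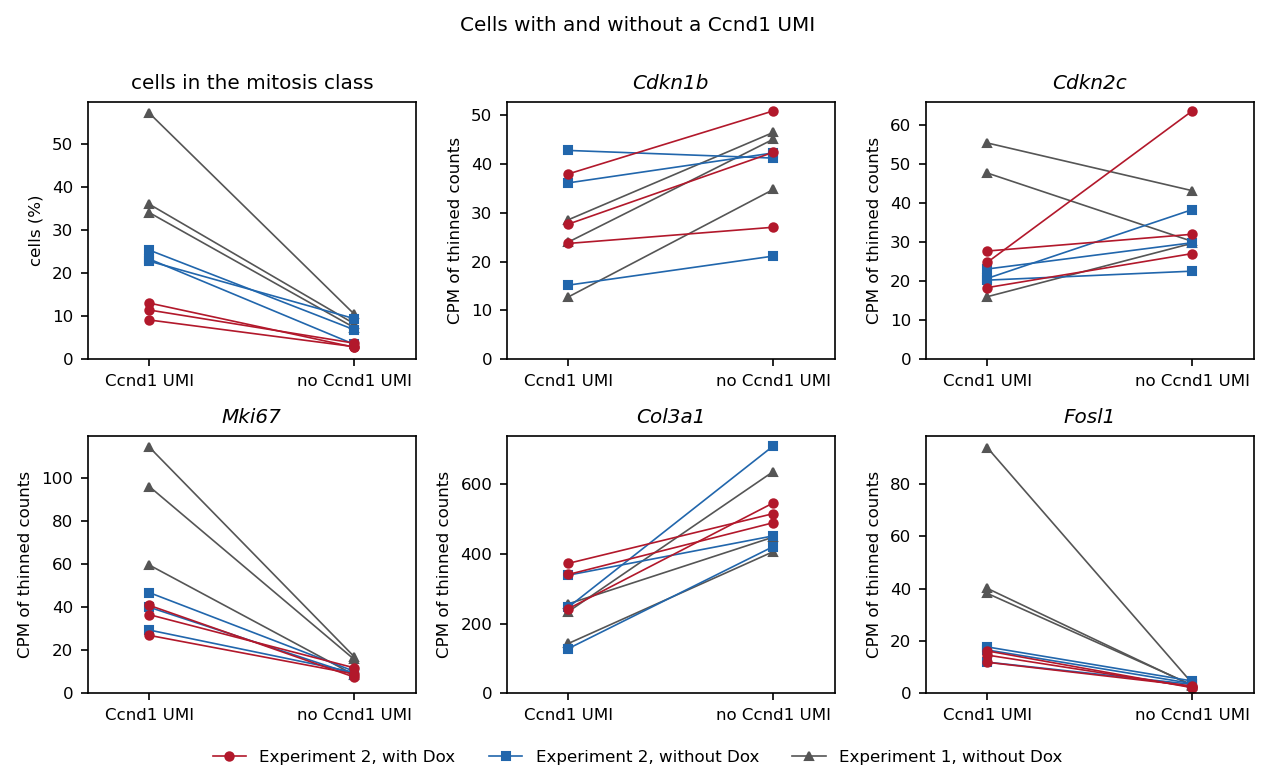
Cells with a Ccnd1 UMI (left in each panel) and cells without (right), joined by a line for each of the 9 libraries, with the share of core mitosis cells in percent in the first panel and, in the others, the CPM of counts thinned to 5000 UMIs per cell for Cdkn1b, Cdkn2c, Mki67, Col3a1 and Fosl1. Mki67 and Fosl1 are higher and Col3a1 is lower in cells with Ccnd1 in each of the 9 libraries, and Cdkn1b is lower in 8 of 9 and Cdkn2c in 7 of 9.

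Cells with a Gli1 UMI, the target gene that reads out the Hedgehog pathway, were compared with the other SAG-treated cells of their library. They numbered 234 and 226 at 19 and 30 h with Dox, 212 and 186 in Experiment 2 without Dox, and 17 and 10 at 17 and 30 h of Experiment 1. Ccnd1 was lower in cells with Gli1, at -0.44 ± 0.13 (edgeR adjusted p = 0.0468), the only 1 of 8 members where 2.4% of 9738 genes passed. It had 42.1 and 50.7 CPM with Gli1 against 51.4 and 71.7 without it in the libraries with Dox, and 16.1 and 11.9 against 19.1 and 20.2 in Experiment 2 without Dox. In Experiment 1 the order was the opposite, at 23.5 and 20.02 CPM with Gli1 against 13.4 and 11.5 without it, but the cells with Gli1 held only 2 and 1 UMIs of Ccnd1 in all.

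That call was lost without any 1 of the 4 late libraries of Experiment 2 (edgeR adjusted p 0.115 to 0.456), and cells thinned to 10000 UMIs gave -0.80 (edgeR adjusted p = 2.10e-11). Myc was at -0.51 (edgeR adjusted p = 0.292), Cdkn2c at 0.25 (edgeR adjusted p = 0.455) and Ccnd2 at -0.15 (edgeR adjusted p = 0.313). Beside Ccnd1, 15 of 48 G2 and M genes were lower and 0 higher in cells with Gli1 (median -0.88), as were 6 of 31 MYC targets and Ccne1 (-1.42, edgeR adjusted p = 0.0238).

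Over the 9 libraries, the genes with the most similar pattern were ranked by Pearson's r of log2 CPM among 6924 genes, as a description, since libraries share experiment, depth and Dox. Nearest to Ccnd1 were Lrig1 (0.977), a feedback inhibitor of growth factor receptors, Tns3 (0.974) and Tmod3 (0.968). Ccnd2 lay nearest to Slc25a1 (0.984), which exports citrate from mitochondria, and Fasn (0.978), the fatty acid synthase, and then Ddr2 (0.977). Ccnd3 lay nearest to Hps1 (0.987), Smpd1 (0.983) and Epn1 (0.979). For Cdk6 the nearest were Tspan11 (0.992), Ndst1 (0.990) and Iqsec1 (0.989).

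Myc lay nearest to Tnc (0.992), the matrix protein tenascin C, Stk17b (0.992) and Eif4e (0.988), the cap-binding factor of translation. Cdkn1a lay nearest to Pik3r1 (0.983), Tmod3 (0.98) and Zfp827 (0.978), so that Tmod3 was among the 3 nearest of both Ccnd1 and Cdkn1a. The nearest of Cdkn2c were Cd47 (0.976), Anxa1 (0.972) and Sdf2 (0.972), and of Cdkn1b Mrps31 (0.948), Irak1bp1 (0.934) and 3830406C13Rik (0.929). Between members, r was 0.948 for Ccnd1 and Cdkn1a, -0.895 for Ccnd1 and Myc, -0.942 for Cdkn1a and Myc, 0.773 for Cdkn1b and Cdkn2c and -0.845 for Ccnd3 and Cdkn1b.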

How the data were processed

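Transcripts of single NIH3T3-CG cells were counted in 9 libraries of the 10x Genomics 3' kit. Cell Ranger and the build mm10 were used, per the submitters' processing notes; per the file headers, the matrices were written by software version 3.1.0 (Experiment 1, 31054 features) and 6.0.1 (Experiment 2, 32286 features). Each deposited value is the count of UMIs of a gene in a barcode, not normalised by the authors. The filter behind the deposited barcodes and the use of strand in counting are not given in the sources used here.

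Features were joined by gene ID. Cells under 5000 UMIs or above 10% mitochondrial UMIs were left out, and counts of the rest were summed per library. Groups came from the labels; 17 h and 19 h were matched as 1 time. Genes were tested with edgeR 4.0.16 in R 4.3.3 (filterByExpr, TMM factors, quasi-likelihood F test, Benjamini-Hochberg adjusted p under 0.05 over all genes tested). The fits of SAG times held the 9 libraries, had terms for condition and for experiment, and left 2 residual degrees of freedom; each condition with Dox has 1 library, whose spread is assumed to be that of the other conditions. The fit over the 3 arms held the 9 libraries, with terms for arm and for late SAG against 0 h, and left 5 residual degrees of freedom. Differences between arms in the answer to SAG came from a fit of SAG within each arm. It took the 2 late libraries of an arm as replicates and left 3 residual degrees of freedom. The fit for Dox held the 6 libraries of Experiment 2 and that for experiment the 6 without Dox. Each had a term for SAG time and left 2 residual degrees of freedom. Class fits used counts of cells thinned to 5000 UMIs, summed per library and class of at least 10 cells, with library as a term. Mycn was under the low-count filter in every fit and Cdkn1c in all but that for Dox. Changes within arms and times subtract log2 CPM values computed with a prior count of 2. Dividing a change by the square root of F gave its standard error. Other tools were DESeq2 1.42.0, Python 3.11.15, numpy 2.4.6, pandas 2.3.3 and scipy 1.17.1; the tests were run on simulated data first.

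Experiment numbers served as the replicate block. The log2 differences between experiments correlated over 14354 genes at 0.782 (0 h and 17 to 19 h), 0.681 (0 h and 30 h) and 0.788 (17 to 19 h and 30 h), so that same-numbered libraries deviate together.

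Shares carry 95% Clopper-Pearson intervals and levels 95% Poisson intervals; a count of 0 has an upper limit of 3 counts. The members, lists, classes and tests were chosen with earlier results of these data known. Genes named beside the members are those of a companion list that passed, up to 4 per comparison by p, and the 3 most similar genes per member with a mean of at least 5 CPM. Promoter windows came from the RefSeq table on GRCm38.p6, which matched 6 of the 10 members. Where it held 2 starts for a gene, the start nearest to that of a principal GENCODE transcript was used. Alternatives were other scaling, DESeq2, no low-count filter, other limits on UMIs, mitochondrial share and class, other terms, and leaving out each library.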

Additional observations from a re-analysis of the deposited data

How the results depend on the processing

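Of the results for single members, 1320 alternatives kept the direction and side of the threshold, 78 lost the call, 51 gained it, 94 moved and 4 reversed. The reversed values were Ccnd2 with Dox under scaling by library size alone (0.35), Cdkn1a in the G2 and M class with classes from the core mitosis list (-0.40), and Myc (-0.52) and Cdkn1a (0.18) beside Ccnd1 in Experiment 1 alone. Those in Experiment 1 alone did not pass. The cause was not tested. These scalings and classes, the cells with no core mitosis gene and the Ccnd1 comparison were added after seeing the data.

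The count of members that passed for SAG at 30 h was 0, and was 1 without the low-count filter and 0 to 3 with a library left out. Over the 3 arms it was 0, and was 3 with DESeq2, 4 without the filter, 1 with at least 10000 UMIs, 2 in neither-class cells, 1 in cells with no core mitosis gene and 0 to 6 with a library left out. For the difference between experiments in the answer to SAG it was 0, and was 1 without the filter and 0 to 4 with a library left out. For Dox it was 6, with Cdkn1c among them, and was 7 by library size alone, 3 in neither-class cells, 0 without SAG time as a term and 4 to 5 with a library left out. For the G2 and M class it was 3, and was 4 with the core mitosis list or at 6 list genes, 1 with DESeq2, 0 in cells thinned to 10000 UMIs and 1 to 3 with a library left out. For the S class it was 1, and was 0 at 3 list genes, 3 at 6 list genes, 0 at 10000 UMIs and 0 to 1 with a library left out. For Gli1 it was 1, and was 3 at 10000 UMIs and 0 to 1 with a library left out. In both, DESeq2 counted 0 but gave no adjusted p for Ccnd1, the member called, so that no call was lost by it. For Ccnd1 it was 5, and was 7 at 10000 UMIs, 2 with DESeq2, 2 in Experiment 1 alone and 2 to 5 with a library left out.

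Without the replicate block (experiment or SAG time left out) 0 members passed at 30 h, at 17 to 19 h and between them, and 4 in place of 2 between the experiments, where library size alone gave 1, no filter 1, neither-class cells 4 and leaving out a library 1 to 2. Leaving out SAG time, which pairs the libraries with and without Dox, ended all 6 calls for Dox. Between the experiments, leaving out SAG time changed members' calls as given above. In the comparisons of SAG times the block changed no member's call. Genes called in all moved more: 64 for SAG at 30 h became 0 without the block, 210 without the filter and 1 to 1276 with a library left out; 16 at 17 to 19 h became 0 to 43 and 8 to 243; 1 between the late times became 0 to 16 and 0 to 72; 99 over the arms became 6 to 2244 and 0 to 3964; 8 between experiments became 1 to 601 and 0 to 2740. With Dox 5233 became 194 to 7425 and 2956 to 4301, between experiments 5270 became 1851 to 5702 and 2656 to 5262, and in the G2 and M, S, Gli1 and Ccnd1 comparisons 1212, 403, 234 and 1801 became 319 to 3405, 168 to 995, 43 to 1070 and 1031 to 2955.

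Of levels and shares, 146 of 270 alternative values moved beyond the counting interval, 65 of them with at most 5% mitochondrial UMIs and 73 with thinning to 10000 UMIs. Depth limits Mycn and Cdkn1c most, and 2 to 5 residual degrees of freedom limit the SAG tests. The tests of Dox and of experiment are limited by 2.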

Other observations

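Within Experiment 1 alone, cells with a Ccnd1 UMI numbered 47, 25 and 21 at 0, 17 and 30 h. There 11.3% of 9110 genes passed, with Cdk6 higher (1.47) and Cdkn1b lower (-1.30) as the 2 members called. Both calls rest on few UMIs: the thinned cells with Ccnd1 held 4, 6 and 7 of Cdk6 and 3, 3 and 3 of Cdkn1b. The following genes were chosen after their values were seen. Spp1, which codes for osteopontin, had 5059, 1810 and 1744 CPM in cells with Ccnd1, against 534, 395 and 366 in cells without, in Experiment 1. In Experiment 2 without Dox it had 326, 181 and 183 CPM with Ccnd1, against 130, 123 and 94.2 without. Hmga2, a chromatin protein of growing mesenchymal cells, was higher by 2.63 and the chemokine gene Ccl2 by 2.89 in Experiment 1, and the endoplasmic reticulum chaperone gene Hspa5 was lower by -1.16.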
